A study of Homo sapiens with 4 samples.

Results

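A miRNA hairpin can yield a mature miRNA from each of its arms, and the 86 miRNAs described here are the less abundant, or minor, arms of their hairpins. They were chosen by their counts in these libraries. For each of the 431 hairpin names listed with both a -5p and a -3p miRNA, the arm with the lower sum over the 4 libraries was taken if that sum reached 100, and 22 hairpin names were left out by a fixed list. Of the 431 names, 21 were on the list. A minor arm under the limit was found for 334 names, some of them on the list. Another 11 reached it but were on the list, and 86 of the 1474 listed miRNAs were thus members. That the minor arm was the lower arm in sum, and that it had at least 100 counts, follows from this choice and is not a result. The members just inside the limit were miR-15a-3p (109 counts), miR-3074-3p (109) and miR-96-3p (124), and just outside it lay miR-4664-5p (99), miR-766-5p (98) and miR-3130-3p (97).

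The libraries came from 4 human colorectal cancer cell lines, with 1 library per line. HCT116 and RKO are parental lines without irradiation, while HCT116-R and RKO-R, with acquired radioresistance, were derived from them in the study by repeated fractionated irradiation and then kept without irradiation before the assays. Each radioresistant line is a single derived population, so what irradiation did and what its passage and selection did cannot be told apart. Small RNA of 18 to 30 nucleotides was ligated to 3′ adapters with unique molecular identifiers, sequenced on the BGISEQ-500 platform and deposited as raw counts per mature miRNA. Values below are given in the order HCT116, HCT116-R, RKO and RKO-R unless the libraries are named.

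In the cell nucleus Drosha cuts a hairpin out of the primary transcript, and in the cytoplasm Dicer removes the loop and leaves a short duplex of both arms. Argonaute takes up the duplex and keeps one arm as the guide, while the other, the passenger or star strand, is released and usually degraded. Which arm is kept is known to depend on the stability of the duplex ends and on the first base of each arm, with U and A favoured. The bases that pair with most target mRNAs are the seed, bases 2 to 8 from the 5′ end, so both arms of a hairpin address different targets. The name passenger strand holds only in part here. In 10 of the 86 hairpins the minor arm outnumbered the major arm in at least 1 library, for miR-1287 only by 1 count against 0. The share over all 431 hairpin names is not given. The members are therefore called minor arms.

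The sequences of hairpins on which the results turn are given first, both arms of each, because the arms differ in seed and in first base. They were read from RefSeq (GRCh38.p14), 5′ to 3′, with the seed in capitals. These hairpins were those with large differences of the arm ratio between libraries or with nearly balanced arms.
miR-423-5p (minor, chr17:30117095-30117117, plus strand): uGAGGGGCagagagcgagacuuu
miR-423-3p (major, chr17:30117131-30117153): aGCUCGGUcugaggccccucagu
miR-574-3p (minor, chr4:38868092-38868113, plus strand): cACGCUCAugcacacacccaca
miR-574-5p (major, chr4:38868056-38868078): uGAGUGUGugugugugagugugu
miR-183-3p (minor, chr7:129774928-129774949, minus strand): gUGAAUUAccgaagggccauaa
miR-183-5p (major, chr7:129774967-129774988): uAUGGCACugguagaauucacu
miR-18a-3p (minor, chr13:91350797-91350819, plus strand): aCUGCCCUaagugcuccuucugg
miR-18a-5p (major, chr13:91350756-91350778): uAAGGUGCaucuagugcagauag
miR-92b-5p (minor, chr1:155195196-155195217, plus strand): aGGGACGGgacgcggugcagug
miR-92b-3p (major, chr1:155195237-155195258): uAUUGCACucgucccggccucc
miR-130b-3p (minor, chr22:21653354-21653375, plus strand): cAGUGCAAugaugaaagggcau
miR-130b-5p (major, chr22:21653316-21653336): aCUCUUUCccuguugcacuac
miR-3944-3p (minor, chr10:133371579-133371601, minus strand): uUCGGGCUggccugcugcuccgg
miR-3944-5p (major, chr10:133371621-133371641): uGUGCAGCaggccaaccgaga
In GENCODE release 29, miR-423 lies in an exon, within the untranslated region, of the protein-coding gene NSRP1 on the same strand. On the opposite strand, an exon of AC104984.5 and an intron of AC104984.2 also cover both of its arms. The miR-574 hairpin lies in an intron of FAM114A1 and the miR-3944 hairpin in an intron of ECHS1, both on the same strand. The miR-18a arms lie in an exon of the non-coding host gene MIR17HG, the miR-92b arms in an exon of AC234582.1 and miR-130b-3p in an exon of AP000553.1, which are both non-coding. No other annotated gene covered miR-183.

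Some minor arms carry the seed of another miRNA. The sets below are shown because they share seeds, with the part shared in capitals.
miR-200a-5p (minor, chr1:1167878-1167899, plus strand): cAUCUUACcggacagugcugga
miR-200b-5p (minor, chr1:1167124-1167145, plus strand): cAUCUUACugggcagcauugga
miR-23a-5p (minor, chr19:13836630-13836651, minus strand): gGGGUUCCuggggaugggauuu
miR-23b-5p (minor, chr9:95085227-95085248, plus strand): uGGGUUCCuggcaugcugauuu
miR-590-5p (minor, chr7:74191213-74191234, plus strand): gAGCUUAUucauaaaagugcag
miR-21-5p (major, chr17:59841273-59841294, plus strand): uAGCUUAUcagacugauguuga
miR-454-3p (major, chr17:59137787-59137809, minus strand): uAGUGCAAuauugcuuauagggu
The minor arm miR-590-5p thus has the seed of miR-21-5p, the abundant major arm of miR-21, and the minor arm miR-130b-3p has that of the major arm miR-454-3p. The 74 minor arms found in RefSeq held 72 distinct seeds.

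Library totals lay between 6818497 counts in HCT116-R and 7140460 in RKO, so that the floor of 3 counts corresponded to 0.420 to 0.440 CPM (counts per 1000000 counts of the library). Among the 6 epithelial miRNAs checked, miR-200c-3p had 291469 and 286432 counts in the HCT116 lineage but 649 and 1426 in the RKO lineage. miR-141-3p was low in RKO as well, at 17 and 41 counts against 6630 and 8320. The other 4 did not separate the lineages so, with 14416, 11355, 13138 and 10963 counts of miR-200a-3p and 1542, 1379, 1574 and 2236 of miR-192-5p. The sum of the list was 47095 and 45825 CPM against 2845 and 2866 CPM. Its difference between the lineages was thus set by miR-200c-3p, while miR-200a-3p had the most counts of the list in both RKO libraries. Blood miRNAs summed to 5.50 to 37.5 CPM and muscle miRNAs to 0.840 to 1.76 CPM. One of the blood miRNAs, miR-486-5p, is itself a member, with 117, 98, 2 and 1 counts, and the part of blood RNA in its values was not tested.

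Minor arms made up a small share of each library. Summed over the 86 members they held 141491, 99623, 120080 and 92661 counts (2.07%, 1.46%, 1.68% and 1.34% of the library), while their major arms held 64.3%, 57.4%, 56.4% and 62.5%. The ratio of the summed counts was 3.23, 2.55, 2.98 and 2.14 minor per 100 major counts. The sum was carried by few members, since the 2 most abundant minor arms of a library held 48.6%, 58.3%, 49.8% and 59.2% of it. The median ratio over hairpins was 5.71, 4.97, 6.61 and 4.62 per 100. It was lower in the radioresistant than in the parental library of each lineage, by less than the quartiles within any library, which lay at 1.14 and 23.6 per 100 in HCT116. These ratios were not tested, and no line had a replicate.

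**Figure D1:**
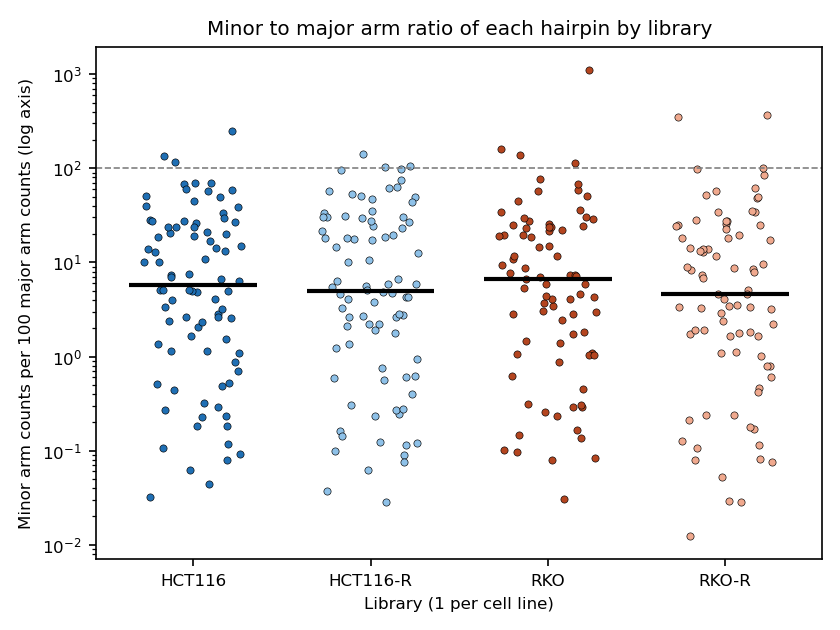
Minor arm counts per 100 major arm counts (log axis) of the hairpins in each of the 4 libraries, 1 point per hairpin, with counts under 3 raised to 3 and hairpins with both arms at or under 3 counts left out. Black bars mark the medians of 5.71, 4.97, 6.61 and 4.62 per 100, the dashed line marks equal arms, and in every library the ratios spread over more than 1000-fold.

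Over all 4 libraries the ratio of summed counts ranged from 0.0336 to 86.0 per 100 major counts, with a median of 7.31. It was under 1 per 100 in 21 hairpins, from 1 to under 10 in 28, from 10 to under 50 in 25 and at least 50 in 12. The minor arm was the 5p arm in 33 hairpins and the 3p arm in 53. Of the 345 hairpins with both arms that were not members, the minor arm was 5p in 152.

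Most hairpins kept the order of magnitude of their ratio across libraries. For the 73 hairpins with at least 10 counts of both arms in all 4 libraries, the highest ratio was a median of 2.64-fold above the lowest. The difference was under 2-fold in 22, from 2-fold to 4-fold in 33 and over 4-fold in 18. Among the steady ones, named after their values were seen, miR-29c-5p had 21.0, 18.5, 22.2 and 19.3 per 100. For miR-378a-5p the ratio was 2.84, 2.63, 2.82 and 3.38 per 100, and for miR-769-5p it was 68.4, 51.0, 56.8 and 57.3.

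The most abundant minor arm was miR-31-3p, from a hairpin known for high levels in colorectal cancer. It had 45555, 35107, 29996 and 34892 counts beside 240229, 98774, 116876 and 135726 of miR-31-5p. The ratio was thus higher in HCT116-R (35.5 per 100) than in HCT116 (19.0), and 25.7 in both RKO libraries. In the HCT116 pair it was the major arm that was called lower, while miR-31-3p had a log2 fold change of -0.40 that did not pass the test.

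Next came let-7d-3p, the minor arm of a let-7 hairpin. Let-7 miRNAs repress growth genes such as RAS and are blocked by LIN28 in stem cells. It had 23144, 22977, 29794 and 19978 counts, at 39.1, 49.3, 28.8 and 17.4 per 100 of let-7d-5p. The other let-7 members lay far lower, with let-7e-3p at 1.10 to 7.48, let-7i-3p at 0.165 to 0.491 and let-7a-3p at 0.239 to 0.445 per 100. RefSeq lists let-7a-3p at 2 loci and let-7a-5p at 3, so their counts add several hairpins.

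miR-21-3p is the passenger of one of the most abundant miRNAs of cancer cells. It had 5804, 3821, 7142 and 6986 counts, and its ratio of 0.706, 0.619, 1.09 and 0.802 per 100 stood against 617082 to 870800 counts of miR-21-5p. miR-27a-5p had 3481, 2189, 3587 and 2724 counts and a ratio of 2.61, 2.67, 7.04 and 4.66 per 100. Both libraries of the RKO lineage lay above both of the HCT116 lineage for this arm.

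The minor arms of miR-200a and miR-200b, hairpins of a family that holds epithelial identity by repressing ZEB1 and ZEB2, had high ratios. miR-200a-5p had 3993, 3389, 1908 and 1290 counts, or 27.7, 29.8, 14.5 and 11.8 per 100. miR-200b-5p had 3345, 1532, 1506 and 1090 counts, or 51.3, 33.8, 34.2 and 25.2 per 100. For miR-200a-5p the HCT116 lineage was the higher in both libraries. The 5p arms of miR-200c and miR-141, encoded at a separate locus, had 1490 and 1372 counts in HCT116 and at most 5 counts in the RKO libraries, where their major arms were also low.

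The remaining abundant minor arms had ratios of a few per 100. miR-99b-3p had 2636, 2272, 3043 and 1505 counts (2.06, 1.90, 3.46 and 1.65 per 100), and its hairpin is transcribed together with let-7e and miR-125a. miR-378a-5p, from an intron of PPARGC1B, had 1409 to 1937 counts. miR-126-5p had 898 to 2441 counts at 3.47 to 4.87 per 100 and comes from an intron of the endothelial gene EGFL7. miR-151a-3p had 1976, 2243, 5630 and 2094 counts (1.54, 2.74, 4.59 and 1.63 per 100) and stood highest in RKO.

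**Figure D2:**
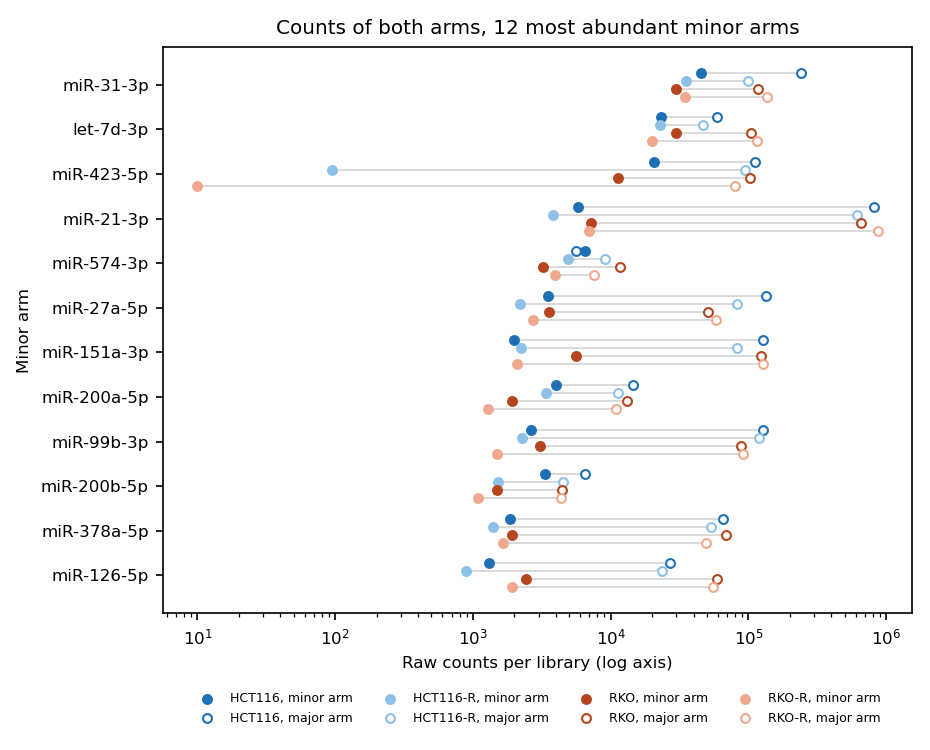
Raw counts (log axis) of the minor arm (filled) and the major arm (open) in each of the 4 libraries for the 12 minor arms with the highest sums, with a grey line joining the arms of a library. miR-423-5p drops to 95 counts in HCT116-R and 10 in RKO-R, and miR-574-3p alone lies above its major arm, in HCT116.

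In 10 hairpins the minor arm outnumbered the major arm in at least 1 library, which occurred for 3, 3, 5 and 3 hairpins of the 4 libraries. These numbers include cases under the floor of 3 counts, miR-486 in RKO (2 counts against 0) and miR-1287 in RKO-R (1 against 0). The deepest case was miR-574, with 6479, 4866, 3236 and 3949 counts of miR-574-3p beside 5599, 9150, 11732 and 7620 of miR-574-5p. The 3p arm thus led in HCT116, at 116 per 100 (95% interval 112 to 120), and was at 53.2, 27.6 and 51.8 per 100 elsewhere. These exact Clopper-Pearson intervals of the minor share cover counting error only. miR-455-3p, from a hairpin in the collagen gene COL27A1, had 566, 326, 1348 and 695 counts, which was 135 per 100 (119 to 154) in HCT116 and 95.04, 45.4 and 27.9 per 100 in the other libraries.

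At lower depth, miR-1285-5p had 40, 39, 47 and 28 counts beside 16, 37, 93 and 33 of its major arm, so that it led in HCT116 (interval 137 to 478 per 100). In HCT116-R the interval, 65.5 to 170, included equal arms. RefSeq lists the major arm at 2 loci. miR-331-5p (34, 54, 43 and 20 counts beside 57, 38, 56 and 59) led in HCT116-R, with an interval of 92.1 to 221 per 100 that included equal arms. miR-365a-3p (18, 45, 54 and 11 counts beside 36, 72, 47 and 31) led in RKO, with an interval of 76.3 to 174. Its counts were identical to those of miR-365b-3p in every library, so reads of both hairpins cannot be told apart.

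The next arms led in libraries of the RKO lineage only. miR-3150a-3p had 37, 36, 35 and 42 counts, and it led in both RKO libraries, where miR-3150a-5p had 22 and 12 counts, and not in the HCT116 lineage, where that arm had 93 and 119. Its interval included equal arms in RKO (90.7 to 285 per 100) and not in RKO-R (181 to 730). For miR-1343-3p, counts of 33 in RKO and 11 in RKO-R stood beside 2 and 1 of the major arm, with ratios of the counts as deposited of 1650 per 100 (422 to 14192) and 1100 per 100 (160 to 47348). In HCT116 and HCT116-R this minor arm had 38 and 56 counts, beside 143 and 128 of the major arm. miR-1304-3p had 143 and 48 counts in the RKO lineage, at 138 and 97.96 per 100, and 0 counts in both HCT116 libraries, where its major arm had 89 and 92.

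miR-1287-3p and miR-486-5p were nearly balanced with their major arms only where the hairpin was measured. Counts of miR-1287-3p were 286 and 180 in the HCT116 lineage, at 70.3 and 62.3 per 100. In the RKO lineage they were 0 and 1, with no count of the major arm, and 1 count is under the floor. Both arms lie in a coding exon of PYROXD2 on the same strand. miR-486-5p, named above among the blood miRNAs, had 56.8 per 100 in HCT116 and 103 per 100 (77.0 to 138) in HCT116-R.

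At the other end stood minor arms with few counts beside an abundant major arm. The lowest ratio of sums was that of miR-34a-3p, whose major arm is induced by p53, with 52, 38, 24 and 16 counts at 0.0437, 0.0287, 0.0306 and 0.0283 per 100. miR-10a-3p, from the HOXB cluster, had 63, 80, 29 and 31 counts at 0.0758 to 0.137 per 100. miR-100-3p had 672, 610, 106 and 115 counts at 0.0764 to 0.119 per 100, and the ratio differed by at most 1.56-fold between libraries, although both arms had far fewer counts in the RKO lineage. miR-3074-3p had 8, 11, 52 and 38 counts, at 0.0325 to 0.125 per 100. Its major arm overlaps the abundant miR-24-3p on the opposite strand over 20 bases. The minor arm itself overlaps miR-24-1-5p there over 19 bases, and miR-24-1-5p had 5, 11, 13 and 13 counts. Without a stated strand setting, overlapping arms cannot be told apart.

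The level of each minor arm was compared between HCT116-R and HCT116 to ask which arms differed with acquired radioresistance. The exact test of edgeR was used with the biological coefficient of variation (BCV) set to 0.2, the value in the study's methods, since no spread could be estimated, and it compares 2 libraries, not 2 conditions. Of 85 minor arms tested, 1 rose, against 2.34% of all 1322 miRNAs, and 1 fell, against 1.66% of all. Both shares were near the background. miR-22-5p rose from 53 to 161 counts (log2 fold change 1.58, SE 0.47, edgeR adjusted p = 0.0233), and its major arm, with 50188 and 98874 counts, had a log2 fold change of 0.96 that did not pass the test. The arm that fell was miR-423-5p, described with its antisense partner below. The median log2 fold change was -0.28 over minor arms with at least 10 counts in both libraries, -0.13 over the major arms and -0.05 over all miRNAs.

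The ratio of the arms does not depend on library totals or scaling, and it was compared for the 84 hairpins with at least 10 counts of each arm in at least 1 library of the pair. It was at least 2-fold higher in HCT116-R for 7 hairpins, against 18.5% of the 146 hairpins of any kind that entered, and at least 2-fold lower for 11, against 13.7%. The members' share of higher ratios, 8.33%, lay below that background and their share of lower ratios, 13.1%, near it. That background holds the 84 members themselves. Of the 62 other hairpins, 20 had a higher and 9 a lower ratio, and most of the 62 had a minor arm under the members' count limit. The shares therefore cannot tell a trait of the members from their choice by counts, and the part of depth was not tested. Among the members, the intervals of both libraries did not overlap in 6 of the 7 and 9 of the 11. The remaining 66 lay within 2-fold and the median change was -0.10 on the log2 scale. miR-1304-3p and miR-3200-5p did not enter.

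Arms with a higher share in HCT116-R came from hairpins of varied depth. miR-3944-3p had 39 and 86 counts beside 132 and 88 of its major arm, which made the ratio 29.5 and 97.7 per 100, a 3.31-fold difference. For miR-331-5p the ratio was 59.6 and 142 per 100, and these intervals overlapped. miR-221-5p, whose major arm represses the cell cycle inhibitor p27, had 91 and 183 counts beside 28537 and 24266, or 0.319 and 0.754 per 100. In these 3 hairpins the minor arm had more and the major arm fewer counts in HCT116-R. miR-561-3p (33.7 and 74.6 per 100), miR-589-3p (10.04 and 21.7), miR-15b-3p (4.96 and 10.6) and miR-342-5p (27.4 and 57.0) made up the rest of the group. miR-342-5p had 189 and 154 counts and its major arm, which fell, 690 and 270.

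Arms with a lower share in HCT116-R, apart from miR-423-5p, were led by miR-1247-3p, with 102 and 37 counts beside 610 and 624, or 16.7 and 5.93 per 100. miR-125a-3p had 424 and 200 counts beside 3301 and 3649, or 12.8 and 5.48 per 100. In both, the minor arm had fewer counts while the major arm had not. For miR-1285-5p the minor arm was nearly the same, at 40 and 39 counts, and the major arm had 16 and 37. The other members of the group were miR-30d-3p (11.0 and 4.90 per 100), miR-135b-3p (0.867 and 0.396), miR-574-3p (116 and 53.2), miR-1306-3p (58.8 and 27.1), miR-576-3p (1.15 and 0.561), miR-29a-5p (0.183 and 0.0909) and let-7i-3p (0.491 and 0.245). The intervals overlapped for miR-1285-5p and miR-1306-3p.

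**Figure D3:**
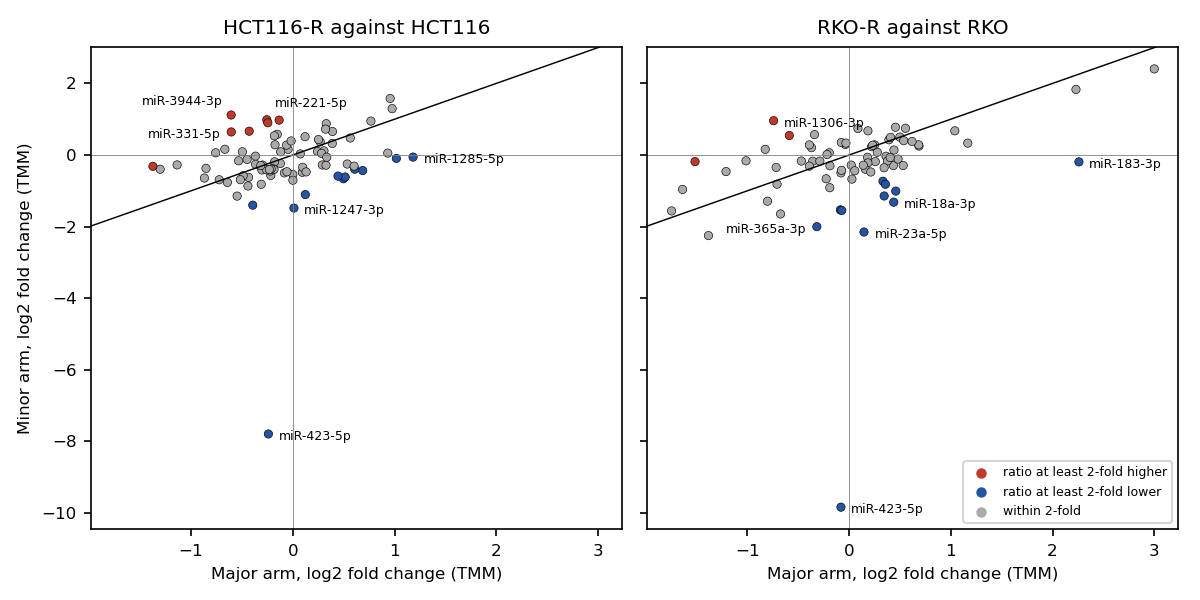
Log2 fold change of the minor arm (y axis) against that of the major arm (x axis), after TMM scaling within the pair, for the 84 hairpins of the HCT116 pair (left) and the 77 of the RKO pair (right), 1 point per hairpin. The black line marks equal change of both arms, red and blue points have a ratio at least 2-fold higher or lower in the radioresistant library, and miR-423-5p lies far below all others in both panels, at -7.79 and -9.83.

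The same question was asked of RKO-R and RKO. Of 85 minor arms tested, 2 rose, against 2.51% of all 1155 miRNAs, and 8 fell, against 3.03%. The share that fell was above that of all miRNAs, most of which had fewer counts than the members, and the share that rose was near it. TMM mattered here, since the median log2 fold change of all miRNAs was 0.03 with it and -0.20 without. miR-210-5p, the minor arm of a hairpin induced by hypoxia, rose from 10 to 44 counts (log2 fold change 2.40, SE 0.65, edgeR adjusted p = 0.00774). Its major arm rose with it, from 51 to 336 counts, and the ratio was 19.6 and 13.1 per 100. miR-139-3p had 17 and 50 counts (1.83, SE 0.57, edgeR adjusted p = 0.0361, and 0.0896 without TMM), and its major arm rose as well, by 2.23 on the log2 scale. Both arms of these hairpins thus changed in the same direction.

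Among the arms that fell in RKO-R, miR-423-5p came first. miR-197-5p had 70 and 12 counts (log2 fold change -2.25, SE 0.61, edgeR adjusted p = 0.00749), and its major arm fell too, from 1595 to 503. miR-671-3p had 108 and 30 counts (-1.56, SE 0.51, edgeR adjusted p = 0.0495) and likewise fell with its major arm, so its ratio was 4.04 and 4.58 per 100. In the other 5 the major arm did not pass the test. They were miR-23a-5p (-2.15, edgeR adjusted p = 0.00142), miR-365a-3p (-2.00, 0.0394), miR-625-3p (-1.55, 0.0294), miR-191-3p (-1.53, 0.0294) and miR-18a-3p (-1.32, 0.0446). At a BCV of 0.4 no call on a member was left in either pair but miR-423-5p. Over minor arms with at least 10 counts in both libraries the median log2 fold change was -0.17, over major arms 0.15 and over all miRNAs 0.03.

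Of the 77 hairpins whose ratio could be compared, 3 had a ratio at least 2-fold higher in RKO-R, against 4.8% of the 125 hairpins of any kind, and 11 a ratio at least 2-fold lower, against 22.4%. The members' shares, 3.90% and 14.3%, were near and below the background. It again holds the members, and of the 48 other hairpins 3 had a higher and 17 a lower ratio. Most of the 48 had a minor arm under the members' count limit, so the choice by counts could not be set apart here either. Among the members, intervals did not overlap in 2 of the 3 and 10 of the 11, 63 hairpins lay within 2-fold, and the median change was -0.30. The 9 hairpins that did not enter had too few counts of an arm in both RKO libraries, among them miR-200c, miR-141, miR-1287 and miR-486.

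In the hairpin of miR-183, which is transcribed with miR-96 and miR-182, the major arm moved and the minor arm did not pass the test. miR-183-5p rose from 18332 to 72117 counts, and miR-183-3p had 82 and 59. The ratio was 0.447 per 100 (0.356 to 0.556) in RKO and 0.0818 (0.0623 to 0.106) in RKO-R, a 5.47-fold difference, while HCT116 and HCT116-R had 0.118 and 0.115. RKO was thus the library that stood apart. The other 2 hairpins of the cluster lay within 2-fold in both pairs.

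In miR-23a and miR-18a the minor arm moved. miR-23a-5p had 52, 43, 141 and 26 counts beside 84079, 68587, 54667 and 49741 of miR-23a-3p, or 0.0618, 0.0627, 0.258 and 0.0523 per 100. Its seed partner miR-23b-5p, shown above, had 64, 97, 59 and 59 counts and was not called. miR-18a-3p, of the growth-promoting miR-17-92 cluster, had 190, 235, 858 and 283 counts beside 2591, 2330, 3679 and 4099 of miR-18a-5p, or 7.33, 10.1, 23.3 and 6.90 per 100. For both minor arms RKO was again the highest of the 4 libraries and RKO-R was close to the HCT116 lineage.

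RKO was also the highest library for miR-151a-3p (1.54, 2.74, 4.59 and 1.63 per 100) and miR-365a-3p (50, 62.5, 115 and 35.5). In miR-191-3p (0.185, 0.233, 0.0792 and 0.0290), miR-625-3p (14.0, 18.3, 9.39 and 3.37) and let-7e-3p (7.48, 5.63, 3.04 and 1.10) RKO-R was the lowest library instead. miR-99b-3p (3.46 and 1.65 in RKO and RKO-R) and miR-331-5p (76.8 and 33.9, intervals overlapping) completed the group. The arms with higher ratios were miR-1306-3p, with 35 and 56 counts beside 114 and 56, miR-30d-3p, with 358 and 259 beside 25652 and 7385, and miR-3150a-3p, with 35 and 42 beside 22 and 12. For miR-3150a-3p the intervals overlapped, and for miR-30d-3p the difference came with a major arm that fell.

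The member with the largest fall in both pairs was miR-423-5p. It fell from 20749 to 95 counts between HCT116 and its radioresistant line (log2 fold change -7.79, SE 0.43, edgeR adjusted p = 2.18e-41), and from 11237 to 10 between RKO and its own (-9.83, SE 0.61, edgeR adjusted p = 7.6e-50). Its major arm, miR-423-3p, had 110657, 95110, 103367 and 80389 counts and was not called in either pair, so the ratio was 18.8, 0.0999, 10.9 and 0.0124 per 100. On the opposite strand, miR-3184-3p overlaps miR-423-5p over all 23 bases, and it had 38, 13716, 50 and 13335 counts. Summed, both had 20787, 13811, 11287 and 13345 counts, or 18.8, 14.5, 10.9 and 16.6 per 100 of miR-423-3p. With the partner added, the ratio changed by -0.37 (HCT116 pair) and 0.60 (RKO pair) on the log2 scale, the latter the reverse of the direction for miR-423-5p alone. No strand setting of the counting is stated, and reads of the 2 miRNAs cannot be told apart without one.

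**Figure D4:**
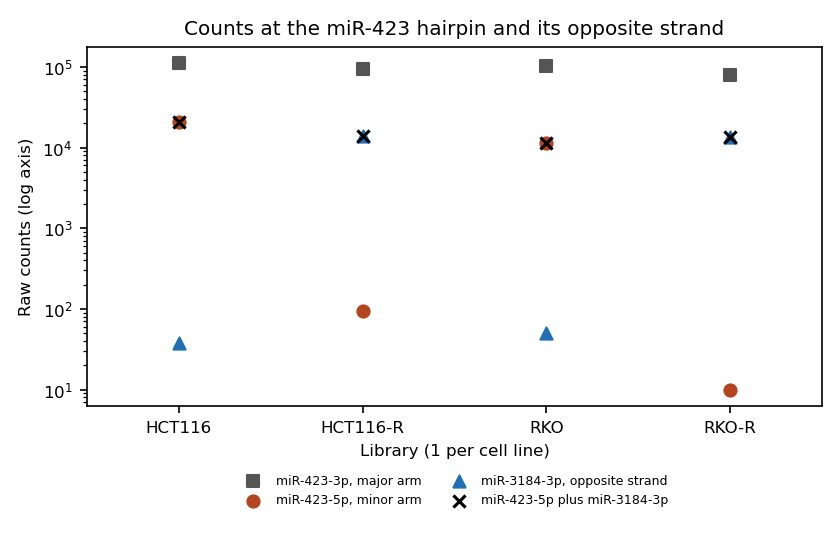
Raw counts (log axis) of miR-423-3p, miR-423-5p, the opposite-strand miR-3184-3p and the sum of the latter pair in each of the 4 libraries, 1 point per miRNA. miR-423-5p is high in the parental libraries and miR-3184-3p in the radioresistant ones, while their sum stays between 11287 and 20787 counts.

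Few hairpins had a differing ratio in both pairs. Of the 75 that entered both, 1 (miR-423) had a ratio at least 2-fold lower in both radioresistant libraries, 0 had a higher ratio in both, 3 passed the limit in opposite directions and 49 lay within it in both. The 3 were miR-30d-3p (log2 change -1.16 for HCT116 and 1.33 for RKO), miR-331-5p (1.25 and -1.18) and miR-1306-3p (-1.12 and 1.70). These differences between the pairs were not tested. The same counts over hairpins of any kind are not given, so no trait of the members can be read from them.

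The ratio was also compared between the lineages, using both libraries of each. Of 81 hairpins that entered, 49 (60.5%) had ratios that did not overlap between the lineages, against 75 of 141 (53.2%) of any kind. The gap was at least 2-fold, with both HCT116 libraries higher, in 4 hairpins, against 7.09%, and with both lower in 8, against 7.8%. Both shares were near the background. The gaps were not tested, since an exact permutation test of 2 libraries against 2 cannot go below a two-sided p of 0.333.

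The clearest higher ratio in the HCT116 lineage was that of miR-425-3p, with 1017, 757, 148 and 86 counts beside 6848, 5959, 4982 and 3875, or 14.9, 12.7, 2.97 and 2.22 per 100. The gap between the nearest libraries was 4.28-fold and lay in the minor arm. miR-191-3p, from the hairpin encoded beside miR-425, had 620, 762, 215 and 61 counts and also differed at least 2-fold, as did miR-744-3p (5.07, 4.59, 1.07 and 1.93 per 100) and miR-455-3p. Both hairpins of the miR-191 and miR-425 list thus had a larger minor share in the HCT116 lineage.

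In the RKO lineage, miR-130b-3p had 73, 56, 283 and 283 counts beside 1468, 1311, 1158 and 1133, or 4.97, 4.27, 24.4 and 24.98 per 100, a gap of 4.91-fold. miR-92b-5p had 307, 491, 649 and 595 counts beside 26998, 35903, 9820 and 4560, or 1.14, 1.37, 6.61 and 13.0 per 100, a gap of 4.83-fold. The minor arm differed in the former, and in the latter mainly the major arm, which was lower in RKO. The others were miR-17-3p (3.23, 2.86, 7.24 and 7.84 per 100), miR-3200-5p (4, 3, 86 and 58 counts), miR-3074-3p, miR-3150a-3p, miR-1343-3p and miR-1304-3p. For miR-1304-3p the ratio was at least 29.1-fold higher in the RKO lineage, computed against the floor of 3 counts per library.

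**Figure D5:**
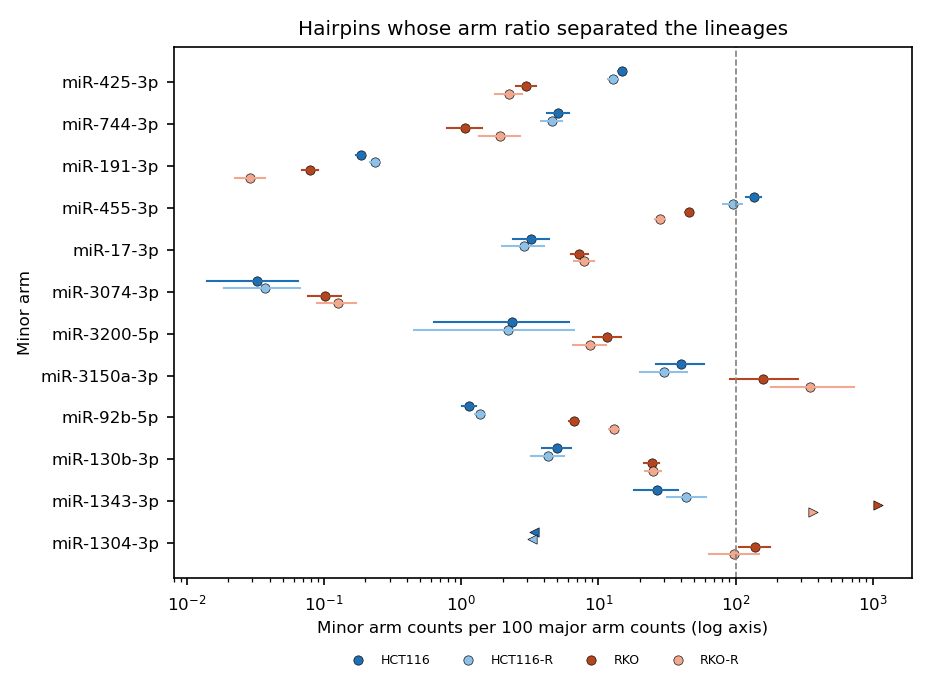
Minor arm counts per 100 major arm counts (log axis) in each library for the 12 hairpins whose ratio differed at least 2-fold between both libraries of one lineage and both of the other, with lines for exact 95% intervals of counting error. Triangles mark values computed with an arm raised to the floor of 3 counts, the dashed line marks equal arms, and miR-425-3p, miR-744-3p, miR-191-3p and miR-455-3p are the 4 that were higher in the HCT116 lineage.

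By miRNA family, members were spread unevenly. All 3 hairpins of the miR-183, miR-96 and miR-182 list had a member, with ratios of sums from 0.132 to 0.186 per 100, the closest agreement of any list with more than 1 member. The miR-200 list had 4 members of 5 hairpins, from 0.549 to 37.8 per 100, and none of the 4 that entered in the HCT116 pair or the 2 that entered in the RKO pair passed the 2-fold limit. miR-200c-5p and miR-141-5p had too few counts to enter in the latter. The let-7 list had 4 of 9, from 0.191 to 29.6, with 1 lower ratio in each pair (let-7i-3p in HCT116-R and let-7e-3p in RKO-R). The miR-17-92 list with its paralogs had 5 of 14, from 0.259 to 12.3, and of these only miR-18a-3p passed the limit in a pair, that of RKO. Between the lineages, miR-92b-5p and miR-17-3p passed the 2-fold limit, as described above.

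The list of miR-23, miR-27 and miR-24 had 4 members of 5, from 0.102 to 7.42 per 100, with miR-23a-5p the 1 that passed the limit. Its median ratio was 2.60 and 3.39 in the HCT116 lineage against 6.48 and 6.25 in that of RKO. The list of miR-99, miR-100 and miR-125 had 3 of 5, from 0.0990 to 8.61, and 1 lower ratio in each pair (miR-125a-3p and miR-99b-3p). No hairpin of the miR-148 and miR-152 list or of the miR-7 and miR-3529 list was a member. Closely related hairpins could lie far apart, as did miR-29c-5p, at 20.4 per 100 of its sums, and miR-29a-5p, at 0.308.

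Minor and major arms differed in their first base, which was not used to choose them. Both arms were found in RefSeq for 72 hairpins. The minor arm began with A in 20, C in 28, G in 9 and U in 15, and the major arm in 16, 11, 4 and 41. U thus began 20.8% of minor and 56.9% of major arms. Only the major arm began with U in 33 hairpins, only the minor arm in 7, both in 8 and neither in 24, and the median ratio of sums in these groups was 3.69, 8.24, 19.96 and 7.33 per 100. The number of A or U among the first 4 bases averaged 1.81 (SD 0.882) in minor and 2.31 (SD 0.944) in major arms, and was higher in the major arm in 37 hairpins, equal in 17 and lower in 18. The median length was 22 bases in both, and the median GC content was 50% and 47.8%. Hairpins are not replicates, so these are descriptions without a test.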

How the data were processed

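Small RNA libraries of HCT116, HCT116-R, RKO and RKO-R, 1 per line, were grouped by their labels. The authors deposited raw read counts per mature miRNA for each library, and a miRNA missing from a library was given 0. The submitters' processing notes name Bowtie2 and hg38. The miRNA annotation, the strand setting and the collapsing of identifiers are not given in the sources used here, so intervals and the floor of 3 counts cover counting error only. Tables were joined by miRNA name and arms paired by hairpin name. The members and the family lists were chosen with earlier results of these data known.

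Levels were tested per pair with the exact test of edgeR 4.0.16 (R 4.3.3), TMM scaling, a BCV of 0.2 and Benjamini-Hochberg adjustment over every miRNA counted in either library of the pair, called at an adjusted p under 0.05. Standard errors came from the counts and this BCV. Ratios carry no test. For medians, changes and gaps of the ratio counts under 3 were raised to 3, while the single ratios and their intervals use the counts as deposited. A hairpin entered with at least 10 counts of each arm in at least 1 of the libraries compared, and a change was counted from 2-fold. Beyond the planned rule, a hairpin with both arms at or under the floor in a library was left out, since its ratio would be set by the floor. Named were the 12 highest sums, the 6 highest and 6 lowest ratios of sums, arms that led in a library, up to 6 largest changes per direction and comparison among called members or ratios, members at the limit, and up to 4 per family. Other members were named after their values were seen. Alternatives were other BCVs, scalings by library totals or the size factors of DESeq2 1.42.0, a filter on low counts, other fold and count limits, and the left-out hairpins taken in. Leaving out hairpins with an antisense miRNA, adding miR-3184-3p and edgeR's quasi-likelihood fit of all 4 libraries with lineage as a block were chosen after seeing the data. Both level tests were tested on simulated data. Sequences came from RefSeq (GRCh38.p14), matched for 74 of 86 minor and 78 major arms, and annotation from GENCODE release 29. Computations used Python 3.11.15, matplotlib 3.10.9, scipy 1.17.1, pandas 2.3.3 and numpy 2.4.6.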

Additional observations from a re-analysis of the deposited data

Results flagged for a closer look

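In 3 hairpins the minor to major arm ratio differed at least 2-fold in opposite directions in the HCT116 and RKO pairs, which drew attention to them. The log2 change of the ratio for miR-30d-3p was -1.16 for HCT116 and 1.33 for RKO. For miR-331-5p it was 1.25 and -1.18, with intervals that overlapped within each pair. For miR-1306-3p it was -1.12 and 1.70, with intervals that overlapped in the HCT116 pair. With 1 library per line the difference between the pairs was not tested.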

How the results depend on the processing

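The labels give no replicate numbers, but each radioresistant library is paired with its parental one. A quasi-likelihood fit of all 4 libraries with lineage as a block, which leaves 1 residual degree of freedom and asks for a change shared by both pairs, called 1 of 86 minor arms, miR-423-5p (log2 fold change -8.75, edgeR adjusted p = 0.00441), and 1 at an unadjusted p. Over all 598 miRNAs in that fit, 4 were called and 10 passed at an unadjusted p. The number of minor arms called in the HCT116 pair was 2, and it was 18 at a BCV of 0.1, 1 at a BCV of 0.4, 11 at an unadjusted p, 1 with a minor sum of at least 1000, 7 with the left-out hairpins taken in and 1 without hairpins that have an antisense miRNA. In the RKO pair the number was 10, and 22, 1, 16 and 3 under the first 4 of these. Of ratios that differed at least 2-fold there were 18 in the HCT116 pair, with 1 at a 4-fold limit, 33 at a 1.5-fold limit and 8 with a minor sum of at least 1000. In the RKO pair there were 14, with 3, 31 and 7. Between the lineages there were 12, with 5 at the 4-fold limit and 4 with a minor sum of at least 1000. The shares over all miRNAs or hairpins are given above for the main settings only. No trait of the members can therefore be read from their counts under the other settings. The ratio of the summed counts, 3.23, 2.55, 2.98 and 2.14 per 100, lay below each median ratio. With miR-3184-3p added to miR-423-5p, the ratio change in the RKO pair turned to 0.60. The causes were not tested. The remaining 39 alternative values of these summaries stayed within 1.5 times the main count or within the spread of the ratios. Depth limits the ratios of hairpins with few counts of an arm, whose intervals span several-fold, and all intervals leave out the spread between cultures.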
